A study of Mus musculus with 39 samples.

Results

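Astrocytes sorted from the nucleus accumbens (NAc) and from PFC of susceptible mice were compared, 8 NAc libraries against 6 PFC libraries out of 39 in the series. They were chosen by the sample titles that read Susceptible with either region, and no measured value entered the choice. The study sequenced astrocytes of male mice after chronic social defeat stress, in which a mouse is repeatedly attacked by an aggressor and then sorted into a susceptible or a resilient class. The labels' protocols describe isolation of the cells from fresh bilateral punches with magnetic beads against ACSA-2, an epitope on the sodium pump subunit Atp1b2. NAc tissue is the only one that protocol mentions, whereas 17 libraries in the series carry the tissue label PFC, which is not spelled out and is read here as prefrontal cortex. The 8 NAc and 6 PFC susceptible libraries share the stress, the sort and the RNA kit, and the labels give each a mouse number of its own. Each PFC susceptible sample number is directly followed by that of a NAc susceptible library, such as 41 and 42. Whether such libraries came from the same mouse is not known, and the main tests treat all libraries as unpaired. 2 further pairs of groups are set beside the susceptible libraries, 7 NAc and 6 PFC libraries of control mice and 7 NAc and 5 PFC libraries of resilient mice. No strain, age or transgene is given in the sources used here.

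Astrocytes of the forebrain arise from the same regional progenitors as the neurons around them and keep part of that positional identity as adults. In the striatum, which includes the NAc, they descend from the subpallium and are known for the thyroid hormone binding protein Crym. Cortical astrocytes descend from the pallium, whose patterning uses transcription factors of the Dmrt and Emx families, and secrete the BMP antagonist Chrdl1, which promotes maturation of cortical synapses. Both populations clear glutamate, buffer potassium and supply neurons with lactate and lipids.

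The 14 libraries held between 1.22 and 26.8 M counts (M, units of 1e6). The median was 12.1 M in NAc and 7.4 M in PFC, and the totals did not differ beyond their spread (difference of means 4.71 M, exact two-sided permutation test, p = 0.197). Counts cover whole gene bodies, so a background level was read from 1972 olfactory and vomeronasal receptor genes, which are silent in brain, as a percent of the cover that evenly spread counts would give. It was 55.3% ± 7.91 (SD, n = 8) in NAc and 46.3% ± 17.8 (SD, n = 6) in PFC, a difference of 9.00 percentage points that did not exceed the spread (exact two-sided permutation test, p = 0.231). PFC replicate 1 stood apart at 13.4%, against 43.4% to 64.6% in the other PFC libraries. It also held the highest neuronal transcripts of the 14, such as 255 CPM (counts per 1e6 counts) of Nrgn against at most 63.0 CPM in any other. The share of counts on mitochondrial genes was 0.970% ± 0.329 (SD, n = 8) in NAc and 1.68% ± 1.03 (SD, n = 6) in PFC (exact two-sided permutation test, p = 0.0909). Background entered every fit as a covariate, so a fitted fold change can differ from the ratio of the CPM values printed beside it.

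1 of the 14 libraries went against its label for part of the region genes and not for others. The 87 genes called between the regions in control mice, which hold none of the 14 libraries, were averaged in each library as log2(CPM + 0.5). For the 19 of them that were higher in NAc of controls, the mean was 5.29 to 6.09 in the 8 NAc susceptible libraries and 4.55 to 5.08 in 5 of the 6 PFC libraries. The library labelled PFC replicate 5 was at 5.37, inside the range of the NAc susceptible libraries. This mean did not separate the regions in every condition. In resilient mice NAc libraries went down to 4.94 and PFC libraries up to 4.95. Its Crym was 45.2 CPM, against 13.3 to 21.9 CPM in the other 5 PFC libraries, and its Chrdl1 of 41.7 CPM lay within the NAc range of 26.0 to 43.6 CPM, as did that of PFC replicate 3 at 33.5 CPM. The library labelled PFC replicate 5 lay above all NAc libraries, as labelled, for Nrgn (14.1 CPM against at most 13.2 CPM), Syp (15.7 against 14.0 CPM), Acta2 (22.7 against 18.2 CPM), Dmrta2 (4.99 against 3.63 CPM) and Chrm1 (25.5 against 22.7 CPM). For other genes lower in NAc it lay within the NAc range, such as Neurod6 (2.91 against at most 3.04 CPM), Thy1 (9.01 against 13.9 CPM), Zbtb18 (8.59 against 16.2 CPM) and Arc (6.93 against 7.84 CPM). These examples were named by p-values of a comparison that includes this library, so they are no test of its label. For the 68 genes that were lower in NAc of controls, the library labelled PFC replicate 5 was at 4.15, but the PFC libraries as a whole spread from 3.88 to 6.40 and overlapped the NAc range of 3.67 to 4.27. Results are given with and without this library where it matters.

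**Figure D1:**
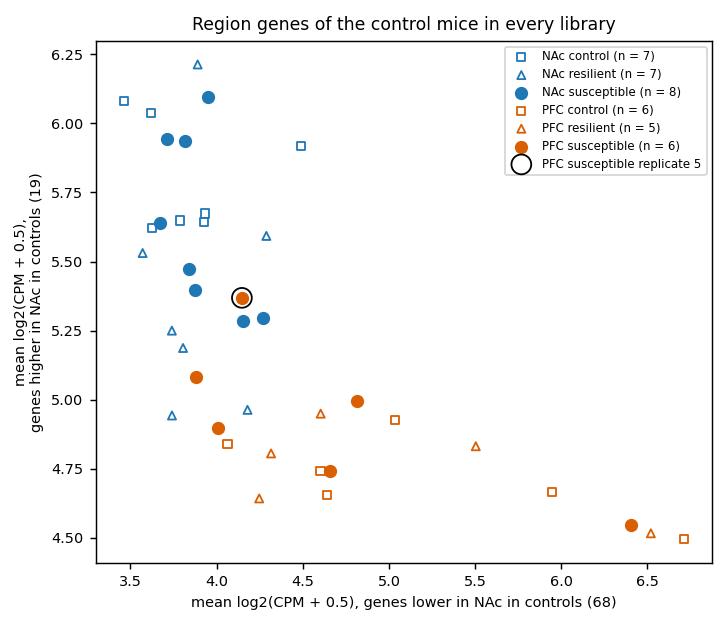
Each point is 1 library. The y axis is the mean log2(CPM + 0.5) of the 19 genes called higher in NAc in control mice, the x axis that of the 68 genes called lower, and the control libraries chose these genes. Filled circles are the susceptible libraries, and the circled library labelled PFC replicate 5 lies at 5.37 on the y axis, among the NAc libraries.

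No gene passed an adjusted p of 0.05 between NAc and PFC of susceptible mice (0 of 33882 genes tested, 0%; edgeR quasi-likelihood test with Benjamini-Hochberg adjustment, smallest adjusted p = 0.373). At an unadjusted p under 0.05 stood 1250 genes (3.69%), 765 of them with a positive fold change (higher in NAc, 2.26%) and 485 with a negative one (1.43%). Without the background covariate the split was the other way, 469 of 2417 with a positive value. Of the 15301 genes above background, 7707 had a positive fold change, and 813 (5.31%) were at an unadjusted p under 0.05, with 416 higher (2.72%) and 397 lower (2.59%). The counts of signs and of small p-values in the gene lists below are to be read beside these. The median log2 fold change over all genes was 0.02. DESeq2 with the same design called 6 genes, Igfbp5, Fzd5, Acta2, 2310015A10Rik, Gm49601 and Chrdl1, and limma-voom with library weights called Acta2 only. Without the library labelled PFC replicate 5, edgeR called 2 genes, Igfbp5 and Fzd5, both higher in NAc. That library was singled out by genes that include Fzd5, Crym, C4b and Six3, so leaving it out raises their fold changes by construction and supports none of them. The genes described next as having the smallest p-values were picked after their values were seen, because none passed the threshold of the naming rule.

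Igfbp5, a secreted binding protein of insulin-like growth factors (chr1:72857932-72874884), had the smallest p of all genes. Its level was 44.8 to 117 CPM in NAc with a median of 56.9 CPM, and 21.9 to 127 CPM in PFC with a median of 54.4 CPM. The PFC range enclosed that of NAc, and the highest value was that of PFC replicate 1, the library with the lowest background. With background in the model the fitted log2 fold change was 0.79 ± 0.14 (SE; adjusted p = 0.373). Without the library labelled PFC replicate 5 it was 0.96 (adjusted p = 0.00888), and without the background covariate 0.26.

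Fzd5, a Wnt receptor of the Frizzled family (chr1:64730558-64737751), was at 8.5 to 21.7 CPM in NAc with a median of 16.4 CPM. In PFC it was at 4.05 to 13.2 CPM with a median of 5.86 CPM, and only PFC replicate 1 and the library labelled PFC replicate 5 reached the NAc range. Its fitted log2 fold change was 1.27 ± 0.25 (SE; adjusted p = 0.635). Without the library labelled PFC replicate 5 it was 1.58 (adjusted p = 0.0113). Background could account for an estimated 19% of the Fzd5 counts in NAc and 36.5% in PFC, from the receptor cover and the gene's span.

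Acta2, the smooth muscle actin of arterioles and some pericytes (chr19:34241090-34255590), had lower values in NAc. It was at 8.86 to 18.2 CPM in NAc with a median of 11.1 CPM and at 17.8 to 76.4 CPM in PFC with a median of 23.5 CPM. Only NAc replicate 7, at 18.2 CPM, reached above the lowest PFC library. This gave a log2 fold change of -0.96 ± 0.18 (SE; adjusted p = 0.635), and -0.92 without PFC replicate 1. Acta2 was called in the fit of all 39 libraries, and its fold change there was -1.12 (adjusted p = 0.0141). Background could account for an estimated 49.3% of its counts in NAc and 18.8% in PFC.

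Other genes with small p-values were spread over several functions. Positive fitted values were those of Kdm5b, a histone demethylase (log2 fold change 0.39 ± 0.09, SE), Rnd3, an atypical small GTPase (0.54 ± 0.13, SE), Gem, a small GTPase that restrains calcium channels (0.58 ± 0.14, SE), and the glycosyltransferase Glt8d1 (0.49 ± 0.12, SE). Kdm5b had group medians of 94.9 CPM in NAc and 93.6 CPM in PFC, and without the background covariate its fold change was 0.04. Glt8d1 was at 14.7 to 28.3 CPM in NAc and at 10.0 to 42.8 CPM in PFC. Gem was at 12.3 to 24.5 CPM in NAc and at 8.44 to 20.3 CPM in PFC. The highest PFC value of both was in PFC replicate 1, the library with the lowest background. Lama3, a laminin chain of basement membranes, was at 176 to 229 CPM in NAc and at 204 to 356 CPM in PFC. Its log2 fold change was -0.46 ± 0.10 (SE; adjusted p = 0.892). Ranges of the 2 groups were disjoint for 15 genes higher in NAc (0.0443% of those tested) and 7 lower (0.0207%), and without the library labelled PFC replicate 5 for 56 (0.165%) and 15 (0.0443%).

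**Figure D2:**
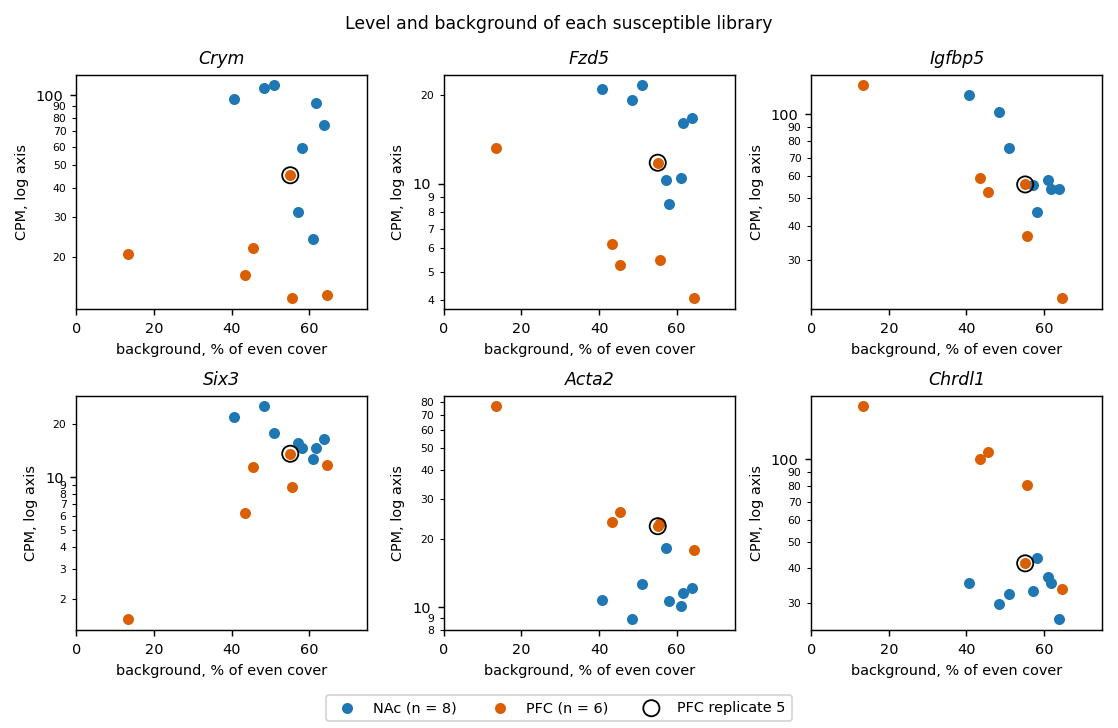
CPM on a log axis against the background percent of each library, 8 NAc (blue) and 6 PFC (orange) points a panel. Crym and Fzd5 lie higher in NAc at like background with the circled library labelled PFC replicate 5 among the NAc points, Igfbp5 overlaps between the groups with its highest point at the lowest background, and Acta2 and Chrdl1 lie higher in most PFC libraries.

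Positional genes were described by 3 lists. Of 32 genes known to vary between astrocytes of different regions, 17 had a positive fold change, and an unadjusted p under 0.05 was found for 7 higher and 6 lower ones, against 2.26% higher and 1.43% lower of all genes. None of the 32 passed the adjusted threshold, and their median log2 fold change was 0.01. Crym (chr7:120186380-120202111), which binds thyroid hormone in the cytosol, had the largest difference of the list. It was at 24.0 to 110 CPM in NAc with a median of 83.5 CPM and at 13.3 to 45.2 CPM in PFC with a median of 18.7 CPM. The overlap came from the library labelled PFC replicate 5 at 45.2 CPM and from NAc replicates 5 and 7 at 24.0 and 31.3 CPM. The log2 fold change was 1.86 ± 0.45 (SE; adjusted p = 1.00), and 2.37 without the library labelled PFC replicate 5 (adjusted p = 0.422). Among the NAc libraries, the 4 with sample numbers 4 to 24 held 92.3 to 110 CPM and the 4 with numbers 30 to 48 held 24.0 to 74.7 CPM. The labels do not say whether sample numbers mark a batch, and with sample number as a covariate the fold change was 1.81.

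Chrdl1, on the X chromosome, was at 26.0 to 43.6 CPM in NAc with a median of 34.2 CPM and at 33.5 to 156 CPM in PFC with a median of 90.6 CPM. PFC replicate 3 and the library labelled PFC replicate 5 lay in the NAc range and the other 4 PFC libraries lay above it. For Chrdl1 the log2 fold change was -0.90 ± 0.21 (SE; adjusted p = 0.988). In NAc the background estimate came to 129% of its counts, so these libraries showed no Chrdl1 above background, while in PFC it came to 50.6%. Gfap, the intermediate filament of white matter and reactive astrocytes, had a log2 fold change of 0.46 ± 0.13 (SE), with medians of 28.4 CPM in NAc and 29.7 CPM in PFC. Igfbp2, another binding protein of insulin-like growth factors, had one of -0.49 ± 0.14 (SE).

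Of 29 pallial patterning factors, 22 had a negative fold change, with an unadjusted p under 0.05 for 9 lower and 2 higher genes and a median of -0.16. Dmrta2, which keeps cortical progenitors in the cell cycle, was at 2.14 to 3.63 CPM in NAc with a median of 3.07 CPM and at 3.36 to 10.5 CPM in PFC with a median of 6.36 CPM. Only PFC replicate 3 lay within the NAc range. The log2 fold change was -0.84 ± 0.20 (SE; adjusted p = 0.892), and background could account for 76.6% of the NAc counts. Nr2f1, which patterns the cortex along its axes, had a log2 fold change of -0.53 ± 0.18 (SE), and Zbtb18, a transcriptional repressor active in cortical neuron development, one of -0.41 ± 0.15 (SE). Tcf7l2, an effector of Wnt signalling in the same list, had a positive value of 0.29 ± 0.10 (SE). None of the 29 passed the adjusted threshold.

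Of 34 subpallial patterning factors tested, 24 had a positive fold change, with an unadjusted p under 0.05 for 5 higher and 2 lower genes and a median of 0.09. Six3, which directs development of striatal neurons, was at 12.7 to 25.4 CPM in NAc with a median of 16.1 CPM and at 1.53 to 13.6 CPM in PFC with a median of 10.1 CPM. The library labelled PFC replicate 5 alone, at 13.6 CPM, reached into the NAc range. The log2 fold change was 0.92 ± 0.27 (SE), 1.08 without that library and 0.71 without PFC replicate 1, which held the 1.53 CPM. Six3os1, transcribed from the opposite strand over part of the same span, had a log2 fold change of 0.85 ± 0.29 (SE), and without a stated strand setting the reads of the 2 cannot be told apart. Zfhx4 followed with 0.46 ± 0.11 (SE; adjusted p = 0.942), and Zic5, which went the other way, with -0.62 ± 0.18 (SE).

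Progenitor and Wnt genes followed. Of 14 neuroblast and dividing progenitor genes, 9 had a positive fold change, with an unadjusted p under 0.05 for 5 higher and 1 lower. Sox11, of immature neurons, had a log2 fold change of 0.77 ± 0.18 (SE), and Top2a, of dividing cells, one of 0.43 ± 0.14 (SE), whereas Nes, of neural stem cells and vessels, had one of -0.55 ± 0.19 (SE). Sox11 was at 6.83 to 14.5 CPM in NAc and at 4.10 to 22.8 CPM in PFC, with the highest value in PFC replicate 1. Of 33 Wnt pathway genes, 15 had a positive value, and the unadjusted p was under 0.05 for 4 higher and 2 lower ones. Beside Fzd5 and Tcf7l2 these included the secreted modulator Dkk3 at 0.33 ± 0.12 (SE) and the nuclear effector Lef1 at -0.27 ± 0.10 (SE). Dkk3 was -0.26 without the background covariate.

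**Figure D3:**
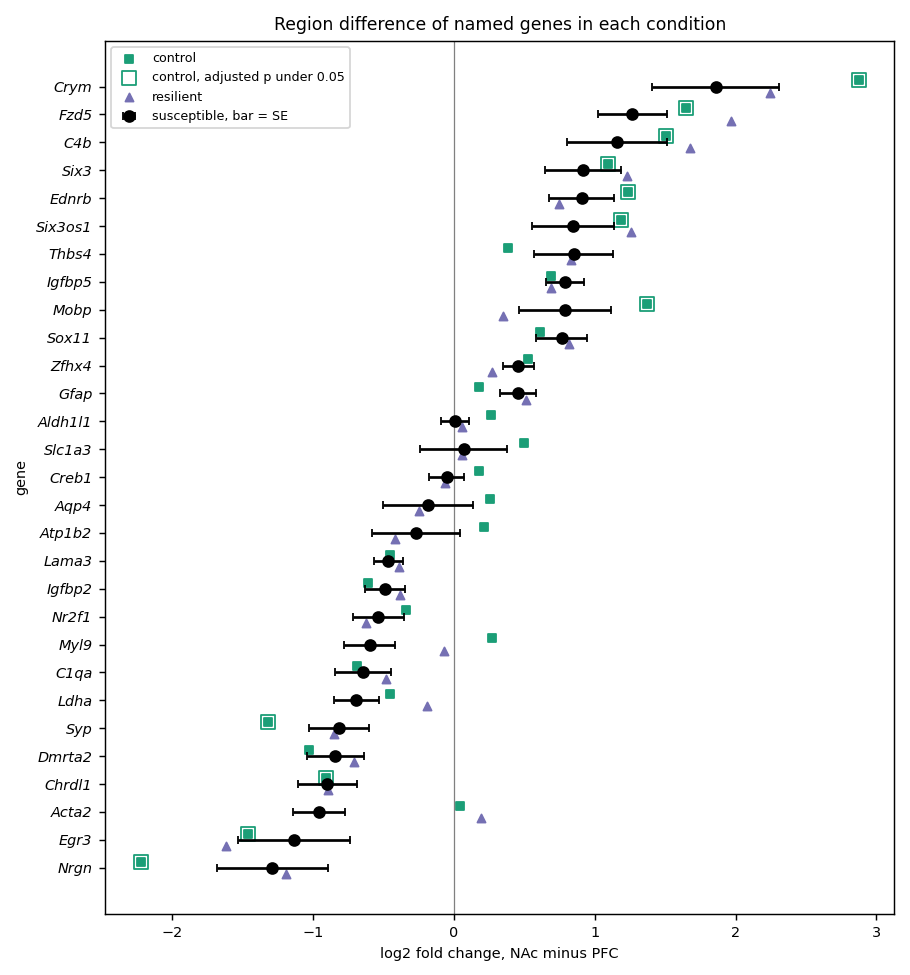
Log2 fold changes, NAc minus PFC, of 29 named genes. Black circles with SE bars are susceptible mice, squares control mice, triangles resilient mice, and an outer square marks an adjusted p under 0.05 in control mice. Crym has the largest value in susceptible mice at 1.86 and Nrgn the most negative at -1.29, and Acta2 lies at -0.96 in susceptible mice and near 0 in the other 2 conditions.

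Markers of other cell types were read in the same way as those of astrocytes. Astrocyte markers were present in all 14 libraries, with a summed level of 5303 to 14714 CPM over 32 markers in NAc and 2872 to 18482 CPM in PFC, and none of the 32 was at 0 in either group. Since background alone puts counts on any gene, members of other lists were also set against it. Above background were 14 of 18 pan-neuronal, 19 of 27 cortical excitatory neuron, 14 of 29 striatal projection neuron, 18 of 20 oligodendrocyte, 12 of 18 microglial and 13 of 14 pericyte and smooth muscle genes. Summed pan-neuronal markers (18 genes) were 1406 to 1770 CPM in NAc and 1433 to 4121 CPM in PFC, the upper end being PFC replicate 1. None of the 18 had a positive fold change, the median was -0.35 (-1.02 without the background covariate), and 3 had an unadjusted p under 0.05. Syp, a synaptic vesicle protein, was at 6.77 to 14.0 CPM in NAc and at 13.5 to 160 CPM in PFC, with a log2 fold change of -0.81 ± 0.22 (SE). Thy1 and Stmn3, a neuronal surface protein and a microtubule regulator, had values of -0.63 ± 0.23 (SE) and -0.49 ± 0.20 (SE).

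Cortical excitatory neuron markers (27 genes) had a median of -0.18, with 5 lower and 0 higher at an unadjusted p under 0.05. Nrgn, a calmodulin-binding protein of cortical pyramidal cells, was at 7.82 to 13.2 CPM in NAc with a median of 8.51 CPM and at 11.9 to 255 CPM in PFC with a median of 22.4 CPM. For Nrgn the log2 fold change was -1.29 ± 0.40 (SE), and -2.76 without the background covariate. The transcription factors Neurod6 and Neurod2 had values of -0.79 ± 0.30 (SE) and -0.74 ± 0.33 (SE). Striatal projection neuron markers (29 tested) had 21 positive values, a median of 0.12 and 6 higher and 0 lower at an unadjusted p under 0.05. Rgs9, a striatal regulator of G protein signalling, was at 66.0 to 76.6 CPM in NAc and at 31.3 to 70.0 CPM in PFC, with a log2 fold change of 0.31 ± 0.10 (SE). Penk, the opioid precursor of indirect pathway neurons, had a value of 0.65 ± 0.26 (SE), and Rarb, a retinoic acid receptor, one of 0.18 ± 0.08 (SE). The level of Penk was 3.35 to 11.3 CPM in NAc and 2.63 to 12.5 CPM in PFC, with the highest value in PFC replicate 1. Background could account for 40.5% of the Rgs9 counts and 62.6% of the Rarb counts in NAc, and both were lowest in PFC replicate 1, the library with the lowest background. With 2 principal components of other cell types' markers as covariates, which hold neuronal markers, several values moved closer to 0. Nrgn had a log2 fold change of -0.62 there, Syp -0.42, Neurod6 -0.22, Neurod2 -0.22, Nr2f1 -0.31, Six3 0.43 and Six3os1 0.34. Dmrta2 had a value of -0.97 and Zfhx4 one of 0.45, close to those without the components. In bulk libraries, fewer cells of a type and less RNA per cell cannot be told apart.

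Of 20 oligodendrocyte genes, 19 had a positive fold change, with a median of 0.32 and 4 at an unadjusted p under 0.05. Mobp, a myelin protein, was at 86.8 to 388 CPM in NAc and at 84.1 to 311 CPM in PFC, with a log2 fold change of 0.79 ± 0.33 (SE), and Mbp had one of 0.62 ± 0.27 (SE). Without the background covariate the list median was -0.03. Microglial genes (18) had a median of -0.13, with 3 lower and 0 higher at an unadjusted p under 0.05. Those 3 were the complement chains C1qa, C1qb and C1qc, at -0.65 ± 0.20, -0.54 ± 0.17 and -0.54 ± 0.24 (SE). C1qa was at 2.27 to 4.10 CPM in NAc and at 4.03 to 6.45 CPM in PFC, so that only the lowest PFC libraries met the highest NAc library. All 14 pericyte and smooth muscle genes had a negative fold change, with a median of -0.37, and 14 of 15 endothelial genes did, with a median of -0.20. Myl9, the smooth muscle myosin light chain, had a value of -0.60 ± 0.18 (SE). Summed pericyte and smooth muscle markers were 508 to 670 CPM in NAc and 587 to 1468 CPM in PFC.

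Core astrocyte genes showed no region difference beyond the spread between libraries. Atp1b2, which carries the epitope of the sort, was at 126 to 343 CPM in NAc with a median of 203 CPM and at 63.2 to 966 CPM in PFC with a median of 417 CPM. Its log2 fold change was -0.27 ± 0.31 (SE), and -1.05 without the background covariate. Slc1a3, the glutamate transporter GLAST, was at 418 to 1367 CPM in NAc and at 194 to 2491 CPM in PFC (log2 fold change 0.07 ± 0.31, SE). Aqp4, the water channel of endfeet, was at 53.8 to 155 CPM in NAc and at 27.6 to 508 CPM in PFC (-0.19 ± 0.32, SE). The folate enzyme Aldh1l1 varied less, at 104 to 203 CPM in NAc and 96.1 to 231 CPM in PFC (0.01 ± 0.10, SE). In all 4 the PFC range enclosed the NAc range. The signs of Slc1a3 and Aldh1l1 depended on the covariate, which gave -0.65 and -0.23 when it was left out. Over the 32 astrocyte markers the median was 0.03 (-0.56 without the covariate), with an unadjusted p under 0.05 for 2 higher and 0 lower, Gfap and the hyaluronan-binding Itih3 (0.46 ± 0.21, SE).

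Genes of transmitter handling were read from 3 lists. Of 13 genes of glutamate uptake and recycling, 10 had a negative value, with a median of -0.12 and 1 gene at an unadjusted p under 0.05, the mitochondrial glutamate carrier Slc25a22 at -0.36 ± 0.15 (SE). Slc25a18, enriched in astrocytes, had a value of -0.42 ± 0.21 (SE). Of 17 genes of GABA and glycine handling, 12 had a negative value, and the unadjusted p was under 0.05 for 3 lower and 0 higher ones. These were the GABA-A receptor subunit Gabra2 (-0.42 ± 0.14, SE), the GABA-B receptor subunit Gabbr1 (-0.40 ± 0.17, SE) and the GABA and betaine transporter Slc6a12 (-0.28 ± 0.12, SE). Among 39 receptors for transmitters, 15 had a positive value, and the unadjusted p was under 0.05 for 3 higher ones and 1 lower. Ednrb, the endothelin receptor of astrocytes, was at 44.9 to 143 CPM in NAc and at 19.1 to 126 CPM in PFC, with a log2 fold change of 0.91 ± 0.23 (SE) and of 0.37 without the background covariate. The dopamine receptor Drd1, a marker of direct pathway neurons, had a value of 0.57 ± 0.25 (SE), and the lysophosphatidic acid receptor Lpar1 one of 0.20 ± 0.09 (SE). Chrm1, the muscarinic receptor of forebrain neurons, was at 17.5 to 22.7 CPM in NAc and at 24.5 to 70.0 CPM in PFC, so the groups did not overlap, and its log2 fold change was -0.42 ± 0.14 (SE).

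Metabolic genes were read from 2 lists. Ldha, which makes lactate from pyruvate, was at 13.5 to 23.3 CPM in NAc with a median of 16.4 CPM and at 15.9 to 80.8 CPM in PFC with a median of 34.0 CPM, with PFC replicate 3 and the library labelled PFC replicate 5 in the NAc range. Its log2 fold change was -0.69 ± 0.16 (SE; adjusted p = 0.892). The glycolytic enzyme Pfkp had a value of -0.42 ± 0.11 (SE), and Ppp1r3g, which targets a phosphatase to glycogen, one of -0.57 ± 0.18 (SE). These 3 were the members of the glycolysis, glycogen and lactate list (25 genes, 26 gene entries tested) at an unadjusted p under 0.05. Of the 26 entries, 21 had a negative value, and the median was -0.11. In the lipoprotein and cholesterol list (27 genes, median -0.14), 19 had a negative value, and the unadjusted p was under 0.05 for 1 gene in each direction. The higher one, the exporter Abca1, had a value of 0.44 ± 0.13 (SE).

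Among 23 synapse-forming and engulfing factors, the unadjusted p was under 0.05 for 2 higher and 2 lower ones. Thbs4, a thrombospondin, was at 31.5 to 64.7 CPM in NAc with a median of 42.6 CPM and at 9.21 to 41.3 CPM in PFC with a median of 22.7 CPM. Its log2 fold change was 0.85 ± 0.28 (SE), and 1.06 without the library labelled PFC replicate 5. Sparc, which counters synapse formation, had a value of 0.34 ± 0.13 (SE), and was -0.10 without the background covariate. Beside Chrdl1, the lower member was the glypican Gpc6 at -0.21 ± 0.10 (SE). Of 26 reactive astrocyte genes tested, 3 had an unadjusted p under 0.05, all higher in NAc, and the median was 0.04. C4b, a complement component whose reads may be shared with its near-identical neighbour C4a, was at 24.9 to 102 CPM in NAc with a median of 40.1 CPM and at 18.4 to 39.4 CPM in PFC with a median of 21.6 CPM. The highest PFC value was again that of the library labelled PFC replicate 5. For C4b the log2 fold change was 1.16 ± 0.35 (SE), and 1.44 without that library. The protease inhibitor Serpina3n had a value of 0.45 ± 0.20 (SE).

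The series is titled for CREB, the cAMP-responsive transcription factor. Creb1 was at 38.8 to 61.7 CPM in NAc with a median of 53.8 CPM and at 37.6 to 102 CPM in PFC with a median of 62.2 CPM, with a log2 fold change of -0.05 ± 0.13 (SE). Over the 15 genes of the CREB family and its coactivators, the median was -0.003, with an unadjusted p under 0.05 for 1 gene in each direction, the coactivator Crtc3 (0.23 ± 0.10, SE) and the stress-response factor Atf4 (-0.43 ± 0.19, SE). For 1 other member the ranges of the groups were disjoint, higher in NAc (0.0443% of all genes tested), without an unadjusted p under 0.05. Of 25 cAMP signalling genes 1 had an unadjusted p under 0.05, the kinase subunit Prkaca at -0.30 ± 0.09 (SE). Immediate early and activity genes (22) had a median of -0.20, with 6 lower and 0 higher at an unadjusted p under 0.05. Arc, a dendritic activity gene, was at 3.12 to 7.84 CPM in NAc and at 5.78 to 75 CPM in PFC (-0.79 ± 0.25, SE). Egr3 had a value of -1.13 ± 0.40 (SE), Ier5 one of -0.44 ± 0.16 (SE) and Junb one of -0.66 ± 0.28 (SE). The highest value of all 4 was in PFC replicate 1, and without it Arc and Egr3 had values of -0.67 and -0.93. Other lists held few genes at an unadjusted p under 0.05: none of 16 interneuron, 8 border macrophage, 12 fibroblast, 9 sodium pump, 8 connexin and pannexin, 12 mitochondrial DNA and 20 glucocorticoid response genes. The 28 heat shock genes had 29 gene entries tested, and 2 of these entries were at that p, both lower. The medians of all 39 lists lay between -0.37 and 0.32. No member of any list passed the adjusted threshold.

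**Figure D4:**
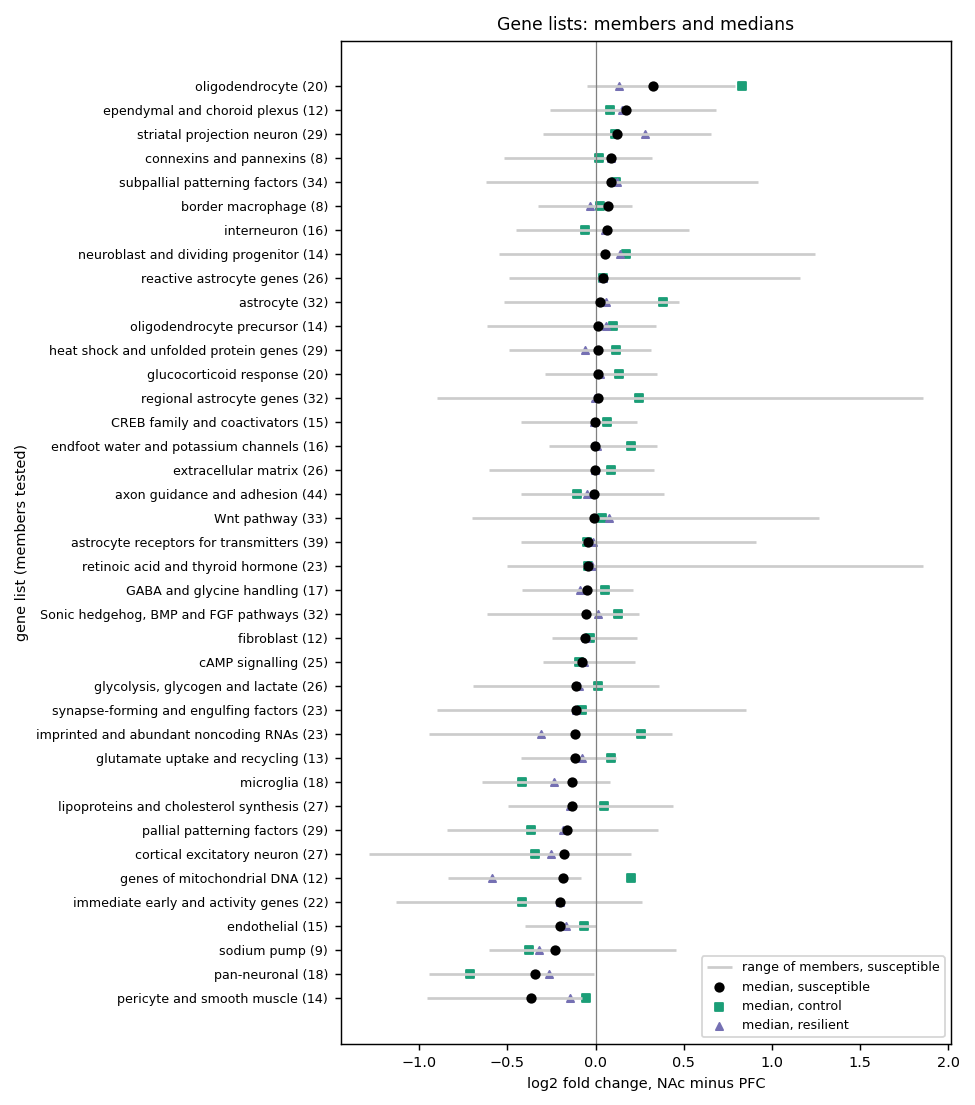
Log2 fold changes, NAc minus PFC, of 39 gene lists, with the number of members tested in susceptible mice. Grey lines span the members in susceptible mice, black circles are their medians, squares the medians in control mice and triangles those in resilient mice. Oligodendrocyte genes have the highest median in susceptible mice at 0.32 and pericyte and smooth muscle genes the lowest at -0.37.

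The same comparison in unstressed mice gave calls. Between NAc and PFC of control mice, 87 of 35323 genes passed an adjusted p of 0.05 (0.246%), 19 higher in NAc (0.0538%) and 68 lower (0.193%), by edgeR's quasi-likelihood test. Without the background covariate 3 were called, and with DESeq2 481. In resilient mice 0 of 32055 genes were called (0%), with 672 at an unadjusted p under 0.05 (2.10%), and DESeq2 called 5. The 68 genes lower in NAc held 5 pan-neuronal markers, 6 cortical excitatory neuron markers and 2 immediate early genes of the fixed lists. The 19 higher ones held Crym, Six3, Six3os1, Fzd5, Ednrb, C4b and the myelin gene Mobp.

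All 19 genes that were higher in NAc of controls had a positive fold change in susceptible mice, 17 of them with an unadjusted p under 0.05. All 68 that were lower had a negative one, 34 of them with an unadjusted p under 0.05. The second of these p-value counts rested on few libraries: it was 3 without PFC replicate 3, and 21, 22 and 17 without NAc replicates 2, 3 and 4, with at least 67 of the 68 still negative in each case. In PFC of controls the mean log2 level of the 68 genes was highest at low background. It was 5.95 and 6.71 in PFC control replicates 1 and 2 (background 36.5% and 21.5%), against 4.06 to 5.03 in other PFC controls. In susceptible mice it was 6.40 in PFC replicate 1 (13.4%), against 3.88 to 4.81 in other PFC libraries. Without that library all 68 stayed negative, 49 with an unadjusted p under 0.05. Whether the 68 genes varied together was not tested, so they may not be separate results. The control and susceptible comparisons share no library. Of the other 33525 genes tested in both, 56.0% had the same sign in both, and of the 2299 among them with an unadjusted p under 0.05 in controls, 86.3% did. With 2 principal components of other cell types' markers as covariates, 19 of the 19 and 52 of the 68 kept their sign, 11 and 5 of them with an unadjusted p under 0.05. With sample number pairs it was 19 and 63, with 5 and 5 at that p. Without the background covariate it was 18 and 68, with 9 and 68. The median log2 fold change of the 19 genes was 0.60 in susceptible mice and 1.07 in controls, and that of the 68 genes -0.61 and -1.22. The control values chose these genes, so they are a description, and a smaller value elsewhere is no test of a difference.

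For single genes the values stand side by side as follows. Crym had a log2 fold change of 2.87 in controls (adjusted p = 0.000743), 1.86 in susceptible and 2.25 in resilient mice. Fzd5 had values of 1.65, 1.27 and 1.97, and C4b of 1.51, 1.16 and 1.68. Chrdl1 had nearly the same value in all 3 conditions, at -0.91, -0.90 and -0.89. Its NAc counts in susceptible mice did not exceed background, so the size of that difference is limited by the floor. Nrgn had values of -2.22, -1.29 and -1.19.

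**Figure D5:**
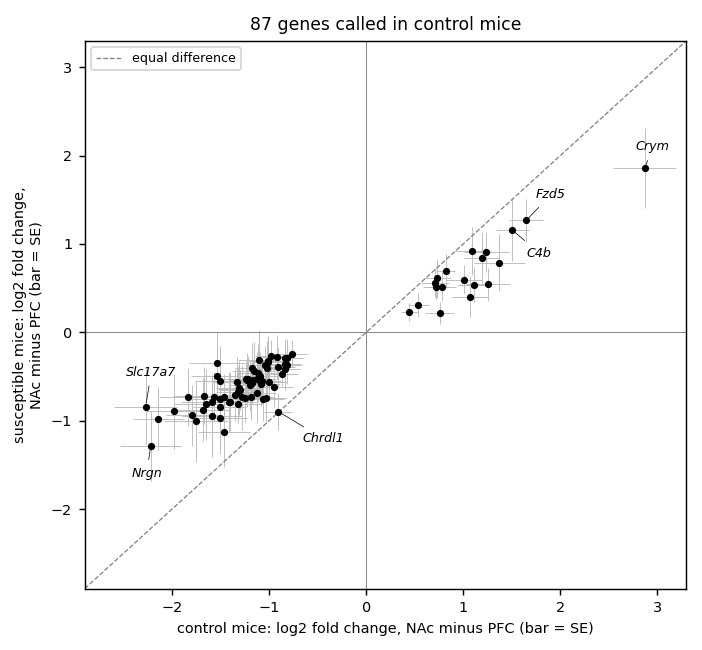
Log2 fold changes, NAc minus PFC, with SE bars, of the 87 genes called in control mice (x axis) against the values in susceptible mice (y axis). All points lie in the 2 quadrants of equal sign, and all 87 lie closer to 0 on the y axis than on the x axis, where they were chosen.

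Whether the region difference itself depended on condition was tested over all 39 libraries. No gene passed for susceptible against control mice (0 of 38171, 0%; edgeR, 1157 at an unadjusted p under 0.05, 3.03%; DESeq2 and limma-voom also 0). None passed for susceptible against resilient mice either (0%; 628 at an unadjusted p under 0.05, 1.65%; DESeq2 1, limma-voom 0). Acta2 had the smallest p in both. Its region value in susceptible mice minus that in control mice was -1.18 ± 0.26 (SE, log2 scale; adjusted p = 1.00). Minus that in resilient mice it was -1.43 ± 0.28 (SE; adjusted p = 0.212), a difference that DESeq2 called. Myl9, the next smooth muscle gene, had region values of -0.60 in susceptible, 0.27 in control and -0.07 in resilient mice. The other genes with the smallest p for the difference from controls were Rcan2, a calcineurin inhibitor (-0.41 ± 0.12, SE), Plxna4os2 (0.89 ± 0.26, SE), Lzts2 (-0.78 ± 0.24, SE) and Syt17 (0.51 ± 0.16, SE). For the difference from resilient mice they were Fam84a (-1.10 ± 0.31, SE), Lsm7 (-1.06 ± 0.31, SE), Mospd3 (-0.95 ± 0.31, SE) and Gja10 (-0.88 ± 0.30, SE). None of these 8 passed the adjusted threshold.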

How the data were processed

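The authors deposited raw counts per gene for 55401 genes and FPKM values, made with featureCounts on mm10 per the submitters' processing notes. Aligner, annotation and strand setting were not given in the sources used here. Dividing deposited counts by deposited FPKM gave a gene length equal to the full GENCODE M21 span for 54229 of 54229 genes compared, within a relative difference of 1e-06, so the counts include introns and any cover between them. Coordinates are those of that annotation on mm10. The 14 susceptible libraries held 1.22 to 26.8 M counts (M, units of 1e6) and all 39 libraries 0.941 to 37.3 M. The lowest, NAc control replicate 3, was part of the fit of control mice. The number and depth of the libraries limit the precision.

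The background percent is the FPKM of 1407 Olfr and 565 Vmn genes, summed counts over summed spans, divided by 0.764, the FPKM of even cover. Counts were tested with edgeR 4.0.16 in R 4.3.3 (quasi-likelihood test, robust, TMM scaling, default count filter by group), with region and background percent in the model and the libraries of 1 condition in each fit. The difference between conditions was fitted over 39 libraries in 6 groups. Adjustment was by Benjamini-Hochberg over all genes tested, with calls at 0.05. Fold changes are log2 values with their SE, positive where NAc is higher. CPM values use TMM scaling within a condition, and summed list levels are unscaled CPM. DESeq2 1.42.0, limma 3.58.1 and sva 3.50.0 gave alternatives. "Above background" means a mean FPKM in either region of at least 2 times the receptor FPKM.

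The comparison, the 39 gene lists and the naming rule were chosen with earlier results of these data known. The rule names up to 4 members of a described list by smallest p, 5 fixed genes and the 5 smallest p-values of each difference between conditions, and genes past the threshold with a log2 CPM above 1, an FPKM of at least 2 times the receptor FPKM and a symbol that is not a predicted or clone name, of which there were 0. Some genes that the rule names are not reported here. On simulated independent counts the test recovered 61.2% of 1.5-fold and 100% of 2-fold changes between regions in susceptible mice, with 7 false calls among 181, on 33882 genes. The simulation changed only genes of higher level, gave each gene the spread typical of its level, and held no background effect and no outlying library. Its rates may therefore not hold for the real libraries, where fitted changes above 2-fold, such as Crym at 1.86 ± 0.45 (SE, log2 scale), were not called. P-values rest on the spread between the libraries of a group. Same-numbered libraries, and those of consecutive sample numbers, were checked for pairing and not treated as pairs.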

Additional observations from a re-analysis of the deposited data

Results flagged for a closer look

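In 162 groups of values, 8 NAc or 6 PFC libraries each, 25 had a library far from the others by Dixon's test, where chance gives about 1 in 20. PFC replicate 1 was the library in 20 of them, each time as the highest. There Igfbp5 was at 127 CPM, Acta2 at 76.4 CPM, Dkk3 at 404 CPM, Zbtb18 at 103 CPM, Nr2f1 at 38.0 CPM and Zic5 at 30.5 CPM. Of neuronal genes, Syp was at 160 CPM, Thy1 at 98.0 CPM, Stmn3 at 35.5 CPM, Nrgn at 255 CPM, Neurod6 at 27.8 CPM, Neurod2 at 16.5 CPM, Chrm1 at 70.0 CPM and Sox11 at 22.8 CPM. Of activity and signalling genes, Arc was at 75 CPM, Egr3 at 75.4 CPM, Ier5 at 32.6 CPM, Prkaca at 77.5 CPM, Gem at 20.3 CPM and Glt8d1 at 42.8 CPM. The library labelled PFC replicate 5 stood apart for Crym at 45.2 CPM and PFC replicate 6, as the lowest, for Lpar1 at 62.2 CPM. In NAc, replicate 7 stood apart for Acta2 at 18.2 CPM, replicate 2 for Gem at 24.5 CPM and replicate 4 for Prkaca at 36.1 CPM.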

How the results depend on the processing

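The count of 0 genes between regions in susceptible mice became 6 with DESeq2, and 1 with limma-voom, with all 39 libraries, with all 39 libraries without the background covariate, with all 39 libraries and only genes above background, and with the replicate block, in each case Acta2. Leaving out 1 library gave 0 to 2 calls, the 2 being Igfbp5 and Fzd5 without the library labelled PFC replicate 5, and leaving out both libraries of sample numbers 41 and 42 also gave 2. The other alternatives gave 0. The fits without sample numbers 41 and 42, without PFC libraries 1 and 6, and of all 39 libraries without the covariate or above background only were chosen after seeing the data. Whether the replicate numbers pair the samples cannot be decided from 6 pairs. Over genes above a log2 CPM of 1, 2 of 6 same-numbered pairs had a correlation of deviations over 0.1 (lowest -0.53, highest 0.43). Of these pairs, 0 correlated best with their own number. Of 6 pairs of consecutive sample numbers, 4 had a correlation over 0.1 and 1 correlated best with its partner. Above a log2 CPM of 3, 0 pairs of either kind correlated best. PFC replicates 1 and 2 have the same NAc partner in both schemes, so the 2 sets of pairs are not separate. The block gave 204 calls in control mice against 87. Control mice also gave 481 calls with DESeq2 and 3 without the covariate, resilient mice 5 with DESeq2, and the difference between susceptible and resilient mice 1 with DESeq2. The difference in background percent stayed positive, from 2.43 points without PFC replicate 1 to 12.1 points with the median over receptor genes. Of 2756 values of the 77 named genes under alternatives, 33 changed sign, all in 6 genes. Most named genes were picked by a small p in this same comparison, which makes sign changes rare by construction. The low count therefore supports none of them. The 6 genes include Aldh1l1, Aqp4, Slc1a3 and Creb1, which were named whatever their p. Without the covariate, Dkk3 was -0.26, Sparc -0.096, Aldh1l1 -0.23 and Slc1a3 -0.65, and over all 39 libraries without it -0.25, -0.087, -0.22 and -0.64. Aldh1l1 was -0.088 with 2 marker components, -0.0030 with DESeq2, -0.0038 with RLE scaling, -0.0099 with all 39 libraries, -0.13 on background-subtracted FPKM, -0.0084 with limma-voom, -0.079 with sample number pairs and -0.060 without PFC libraries 1 and 6. Slc1a3 was -0.084 with marker components, -0.020 with all 39 libraries, -0.22 on background-subtracted FPKM and -0.018 with sample number pairs. Creb1 was 0.059 with 2 surrogate variables, 0.015 with limma-voom and 0.0051 with the library total as covariate, and Aqp4 0.0021 with limma-voom. Leaving out 1 library gave -0.076 to 0.052 for Aldh1l1, -0.51 to 0.067 for Aqp4, -0.15 to 0.0087 for Creb1 and -0.23 to 0.22 for Slc1a3. The cause of these changes was not tested.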
